A study of Mus musculus with 12 samples.

Results

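The 42 genes described here mark dividing cells, out of 31053 genes in the count matrices. They were taken from a fixed list of names and fall into 24 mitosis genes, 15 S phase genes and 3 broadly expressed genes (Stmn1, Tubb5 and H2afz) that rise when cells divide but are transcribed in resting cells too. All 42 were found in each of the 12 libraries. The question was which cells of the stromal vascular fraction of mouse adipose tissue were dividing, in which depot, and how this differed between lean, obese and rosiglitazone (Rosi) treated mice.

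The stromal vascular fraction is what remains of digested fat once the buoyant adipocytes have been removed. It was taken from epididymal (eWAT) and inguinal (iWAT) white adipose tissue of 12-week-old male mice and profiled by droplet single-cell RNA sequencing. Vehicle went to lean C57BL/6J mice (WT-Veh) and to mice of the ob/ob-Veh label, which carried the Lepob allele on both chromosomes, and ob/ob-Rosi mice carried the same alleles and were given 30 mg/kg rosiglitazone, a PPARγ agonist, by gavage each morning and evening for 3 days. Each label had 2 libraries per depot. The buoyant layer of adipocytes, with any cell that floats with it, was not captured. Lean mice given Rosi were not analysed here.

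A cell that commits to division copies its DNA in S phase and then separates the copies in mitosis. The Mcm2 to Mcm7 proteins form the helicase that opens DNA for copying, Pcna clamps the polymerase to it, and Rrm1, Rrm2, Tyms and Tk1 make the nucleotides that copying consumes. In mitosis Cdk1 with the cyclins Ccnb1 and Ccnb2 drives entry, Aurka, Aurkb, Plk1 and Bub1 are kinases of spindle and checkpoint, Cenpa, Cenpe and Cenpf sit at the centromere, and Cdc20 and Ube2c work with the anaphase-promoting complex that ends it. Macrophages of fat are known to be replenished both by monocytes from blood and by division within the tissue.

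These genes are known to be controlled at their promoters by short elements. The cell cycle genes homology region (CHR, TTTGAA) and the CCAAT box (CCAAT) are typical of genes switched on for mitosis, and E2F letters (TTGGCGC or TTCGCGC) of genes switched on for S phase. RefSeq promoters of build GRCm38.p6, running from 250 bases before to 50 after the annotated start, were matched by symbol for 34 of the 42 members, and the letters were searched on both strands. A member was counted once if any of its promoters held them, whereas the share of all promoters counts each of 32851 promoters, from 27025 genes. A CCAAT match read as ATTGG may share bases with a TTGGCGC match. From 100 bases before to 50 after the start, TTTGAA was held by 15 of 20 mitosis members with a promoter, 1 of 13 S phase members (Mcm2) and 8.01% of all promoters. Over the whole window the member counts were the same, against 17.9% of all promoters. E2F letters were held over the whole window by 6 of 13 S phase members (Mcm3, Mcm5, Mcm6, Mcm7, Uhrf1 and Hells), 4 of 20 mitosis members (Mki67, Ccnb1, Cdk1 and Hmmr) and 3.89% of all promoters. CCAAT was held over the whole window by 18 of 20 mitosis members, 9 of 13 S phase members and 37.4% of all promoters. In the narrower window E2F letters were held by 4 of 13 S phase members, 1 of 20 mitosis members and 2.28% of all promoters. CCAAT was held there by 16 of 20 mitosis members, 8 of 13 S phase members and 23.4% of all promoters. The windows below show the element in capitals for mitosis members whose levels are given later, each read 5′ to 3′ on the strand of its gene, followed by E2F letters of 2 helicase genes.
Mki67, chr7:135716460-135716489, minus strand: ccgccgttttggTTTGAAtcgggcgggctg
Top2a, chr11:99024195-99024224, minus strand: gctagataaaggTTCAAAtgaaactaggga
Ube2c, chr2:164769888-164769917, plus strand: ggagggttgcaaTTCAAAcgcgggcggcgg
Cdk1, chr10:69352910-69352939, minus strand: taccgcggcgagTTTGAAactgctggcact
Cdc20, chr4:118437344-118437373, minus strand: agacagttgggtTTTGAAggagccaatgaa
Ccnb2, chr9:70421533-70421562, minus strand: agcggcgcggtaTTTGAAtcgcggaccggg
Mcm5, chr8:75109345-75109374, plus strand: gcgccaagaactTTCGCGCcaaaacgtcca
Mcm6, chr1:128359734-128359763, minus strand: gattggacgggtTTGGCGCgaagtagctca
The windows of Top2a and Ube2c hold the CHR letters as TTCAAA, their reverse complement. A match describes letters within a window and is neither a measured binding site nor a cause of the levels below.

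**Figure D1:**
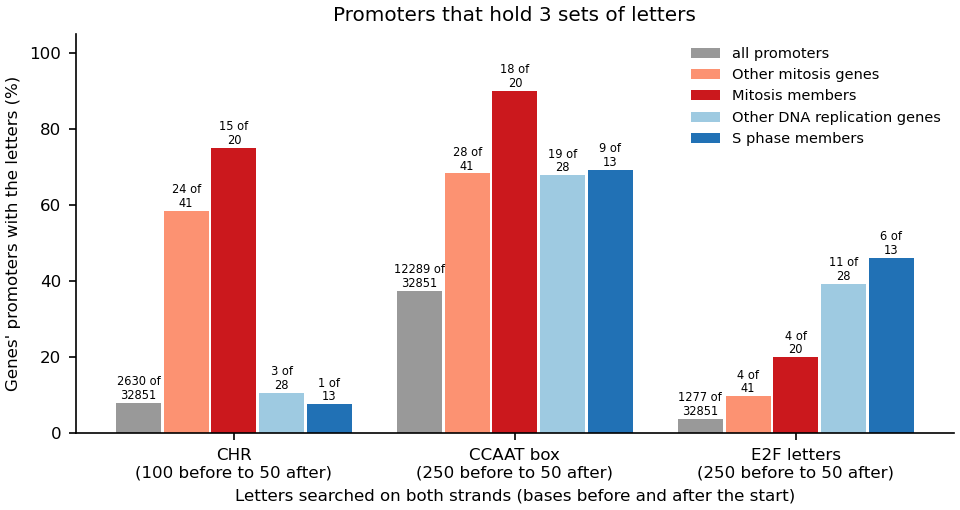
Share (%) of RefSeq promoters (all promoters) or of genes with the letters in at least 1 of their promoters (the members and 2 further lists of replication and mitosis genes) that hold the CHR, CCAAT or E2F letters, with the counts above the bars. The CHR bar of the mitosis members (15 of 20) stands above that of all promoters (8.01%) and of the S phase members (1 of 13).

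After filtering, 57613 cells of eWAT and 68482 cells of iWAT remained, with a median of 2046 to 4961 and 1132 to 4671 unique molecular identifiers (UMIs, counted transcripts) per cell across libraries. Cells were clustered with the cell cycle genes left out, and clusters were named from marker genes. The macrophage-like cells numbered 27529 in eWAT and 21666 in iWAT, and the stroma-like cells 17549 and 20582. Endothelial (EC-like), T and NK-like, B cell-like and dendritic (DC-like) cells were fewer, at 2953, 3108, 490 and 2636 in eWAT and 8093, 5878, 2177 and 1891 in iWAT. In iWAT 7997 cells stayed unnamed, among them a cluster of 6757 cells nearly all from WT-Veh replicate 1. Any pair of libraries shared 7 to 99 cell barcodes, at most 1.05% of the smaller library. Lep, the gene hit by the ob allele and known for an abundant transcript in fat of ob/ob mice, gave 28.0 and 42.5 UMIs per 100 Adipoq UMIs in eWAT of WT-Veh mice, 3.95 and 16.2 in ob/ob-Veh and 240.0 and 390.1 in ob/ob-Rosi. The ratio in iWAT, taken in the same order, was 20.1 and 31.6, 36.4 and 15.1, and 164 and 141, so that WT-Veh and ob/ob-Veh overlapped there. The eWAT order of WT-Veh and ob/ob-Veh goes against what is known of the allele. It rests on few adipocyte transcripts (7 to 43 Lep UMIs per eWAT vehicle library), and 3′ counts do not read the mutation. The groups are therefore named by their labels, and each direction below holds for the libraries so labelled.

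Pooled over libraries, most mitotic cells were macrophage-like, though macrophage-like cells were the minority of mitotic cells in 6 of 12 libraries. A cell was counted as mitotic when at least 3 of the 24 mitosis members had a UMI after its counts were thinned to 1500 UMIs. Shallower cells were left out. The word stands for this count of transcripts, and cells in mitosis were not told apart from dividing cells before it. By this measure 1928 of 45623 eWAT cells and 642 of 45829 iWAT cells were mitotic. Most other cells held no mitosis member (36222 and 39957) or 1 (6506 and 4678), and 423 and 157 cells held exactly 3, just inside the limit, against 967 and 552 with 2. Pooled over classes, mitotic cells were deeper, with a median of 6866 UMIs before thinning against 4226 in the other cells of eWAT, and 5391 against 3604 in iWAT. The median was lower in mitotic than in other cells among DC-like cells of eWAT (3753 against 3986) and EC-like (2521 against 3658) and B cell-like cells (1631 against 1784) of iWAT. Among all mitotic cells 22.5% and 21.7% also held at least 3 S phase members.

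In eWAT the mitotic share of macrophage-like cells was 9.82% and 5.68% in the 2 WT-Veh libraries, 2.12% and 1.11% in ob/ob-Veh, and 7.92% and 6.87% in ob/ob-Rosi. Exact binomial 95% intervals, which cover counting error only, ran from 0.714% to 2.77% for ob/ob-Veh and from 4.83% to 10.6% for the other libraries. The ob/ob-Veh libraries thus lay below all others. They also held few lipid-associated (LAM-like) cells, a state described below, at 34 of 2450 and 65 of 2159 thinned macrophage-like cells. In WT-Veh these were 4608 of 6702 and 1666 of 2642, and in ob/ob-Rosi 2585 of 3964 and 3602 of 4703. The study proposes that such cells of ob/ob-Veh mice floated with the adipocytes, and its flow cytometry found fewer of them with Rosi. In these libraries they were instead more numerous with Rosi. They were numerous in WT-Veh too, a label that the proposal does not cover. As with Lep, these values hold for the libraries so labelled. What part the number of such cells has in the shares was not tested. In iWAT the macrophage-like share was 3.31% and 0.987% in WT-Veh, 0.425% and 0.167% in ob/ob-Veh, and 3.09% and 2.48% in ob/ob-Rosi, with ob/ob-Veh again lowest, on 7 and 2 mitotic cells. With 2 libraries against 2 no exact permutation test can give a p below 0.3333, so these differences are a description. Without thinning, the eWAT macrophage-like shares of WT-Veh were 13.2% and 14.7% and those of ob/ob-Veh 3.64% and 2.91%. The value of WT-Veh replicate 2 depends on the upper limit on UMIs and genes: with the cells above it added, 5.68% became 9.28%.

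Stroma-like cells, which include the adipocyte progenitors, held almost no mitotic cells. Their share was 0.741% and 0.0677% in eWAT of WT-Veh mice, 0.0532% and 0.146% in ob/ob-Veh, and 0.613% and 0.820% in ob/ob-Rosi. In iWAT it was at most 0.319%, and 0 of 2765 and 0 of 2812 stroma-like cells were mitotic in WT-Veh replicate 2 and ob/ob-Veh replicate 2. EC-like cells stood at 4.66% and 1.67% in eWAT of WT-Veh mice, 0.448% and 0 of 474 cells (which allows up to 0.633%) in ob/ob-Veh, and 2.17% and 1.16% in ob/ob-Rosi, above the stroma-like share in 5 of 6 eWAT libraries. Single clusters carried the EC-like share: in eWAT 28 of 537 cells (5.21%) of a shallow cluster were mitotic against 3 of 1577 (0.190%) in the largest one, and in iWAT 20 of the 34 mitotic EC-like cells lay in a cluster that came to 99.2% from 1 library. Within libraries, the macrophage-like share exceeded the stroma-like share in 6 of 6 libraries of each depot, by 5.18 ± 3.102 percentage points in eWAT and 1.61 ± 1.31 in iWAT (SD, n = 6). It exceeded the EC-like share in 6 of 6 libraries as well, by 3.90 ± 2.05 and 1.20 ± 1.01. For each of these 4 differences the two-sided exact sign-flip test gave p = 0.03125, the smallest that 6 libraries allow, and 0.0625 after Benjamini-Hochberg adjustment over 10 comparisons.

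T and NK-like and DC-like cells held mitotic cells in every library with enough of them. The T and NK-like share ran from 2.52% to 9.09% in eWAT and from 2.84% to 15% in iWAT. In eWAT it averaged 3.97% in ob/ob-Veh against 7.61% in WT-Veh, without overlap, and ob/ob-Rosi overlapped both. The 9.09% of WT-Veh replicate 1 rests on 11 mitotic cells, among the 121 of 453 cells that the limit of 1500 UMIs kept. Over all cells, without thinning, the eWAT share was 4.42% and 6.96% in WT-Veh and 4.73% and 3.498% in ob/ob-Veh. The vehicle labels of eWAT then overlapped. In iWAT ob/ob-Veh was highest, at 15% and 10.7%, without overlap. Those values rest on 3 mitotic cells each, among the 20 of 147 and 28 of 231 cells that the limit of 1500 UMIs kept. Without thinning, over all cells, they were 2.72% and 1.299%, against 1.61% and 5.65% in WT-Veh and 4.01% and 3.09% in ob/ob-Rosi. The iWAT order of the labels thus depends on the thinning. The macrophage-like share was higher in only 2 of 6 eWAT libraries and 1 of 6 iWAT libraries (exact sign-flip adjusted p = 0.875 and 0.156). The iWAT test includes the thinned ob/ob-Veh values. The DC-like share was 6.51% and 4.01% in eWAT of WT-Veh mice, 14.4% and 6.20% in ob/ob-Veh, and 8.90% and 5.71% in ob/ob-Rosi. By cluster, 107 of 922 eWAT cells (11.6%) were mitotic in one with Clec9a and Xcr1 among its leading genes, against 45 of 1118 (4.03%) in one led by Ccr7. The part of this mix in the DC-like shares was not tested. The ob/ob-Veh libraries were not low here, but with cells thinned to 3000 UMIs ob/ob-Veh minus WT-Veh turned from 5.05 to −7.82 points. In iWAT it was 4.65% and 4.29% in WT-Veh, 7.98% and 6.09% in ob/ob-Veh, and 11.2% and 12.8% in ob/ob-Rosi, with no overlap between labels. The WT-Veh values rest on 4 and 6 mitotic cells. Without thinning, the order of the vehicle labels turned. The iWAT shares were then 7.55% and 9.55% in WT-Veh, 6.06% and 4.80% in ob/ob-Veh, and 15.3% and 16.9% in ob/ob-Rosi. With cells thinned to 3000 UMIs ob/ob-Rosi minus ob/ob-Veh turned to −0.273 points, while ob/ob-Veh minus WT-Veh was 9.30. The DC-like share exceeded the macrophage-like share in 6 of 6 iWAT libraries, by 6.09 ± 3.31 points (SD, n = 6, exact sign-flip p = 0.03125, adjusted 0.0625). In clusters made with the cell cycle genes kept it cannot be read, since a cluster led by Mki67 and Cenpf then gathers dividing cells and is named macrophage-like as a whole. The B cell-like share was between 0 of 40 cells and 6.74% in the 4 vehicle libraries of eWAT and at most 2.56% in iWAT, each from few cells.

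**Figure D2:**
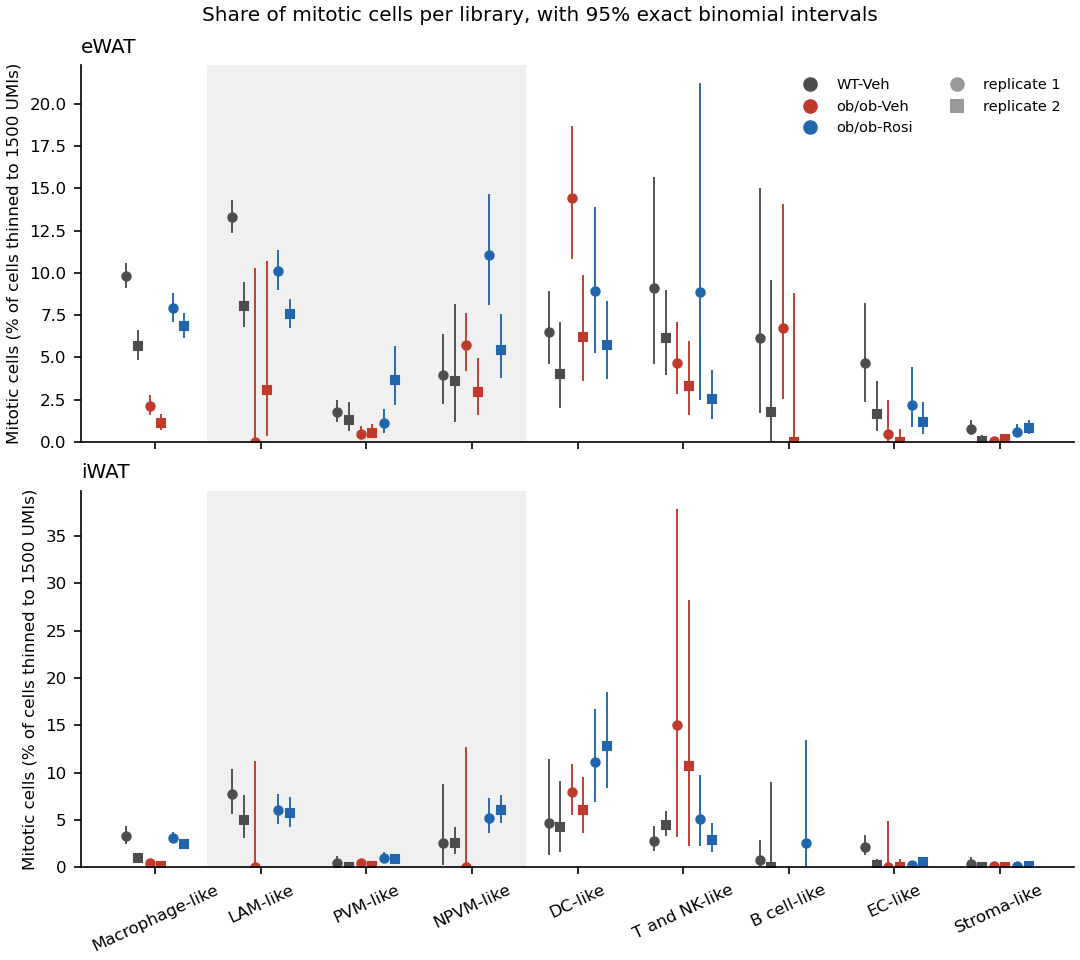
Mitotic cells as a percent of the cells thinned to 1500 UMIs (vertical axis), for each class and, on the grey band, each macrophage state (horizontal axis), in eWAT (top) and iWAT (bottom). Each point is 1 library with at least 20 such cells, coloured by label and shaped by replicate, and bars are 95% exact binomial intervals. The red ob/ob-Veh points are lowest among macrophage-like cells in both depots, but not among DC-like cells.

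The largest difference between depots was that of macrophage-like cells. Averaged over the labels, the macrophage-like mitotic share was 3.84 percentage points higher in eWAT than in iWAT, and the exact permutation of depots within labels gave p = 0.00926, the smallest it allows, and 0.0556 adjusted over 6 classes. The stroma-like and EC-like shares were 0.276 and 1.14 points higher in eWAT (both adjusted p = 0.185 by the same exact permutation). The T and NK-like and DC-like differences were −1.08 and −0.211 points (exact permutation adjusted p = 0.767 and 0.907). B cell-like cells could be compared in WT-Veh alone, on 4 libraries, and differed by 3.57 points (exact permutation p = 0.3333, the smallest it allows, adjusted 0.5). The deposited iWAT matrices hold no barcode above 22000 UMIs, and the same limit was set for eWAT. Macrophage-like cells were also a different mix of states in each depot. LAM-like cells were 15021 of 27529 in eWAT and 3341 of 21666 in iWAT, and perivascular (PVM-like) cells 8905 and 15686. What part this mix has in the depot difference was not tested.

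Macrophages of fat are often divided into lipid-associated (LAM), perivascular (PVM) and non-perivascular (NPVM) states, named here from marker genes. The LAM-like cells of eWAT join 3 clusters. One led by Mmp12, Gpnmb and Spp1 scored 2.07 for the LAM markers and held 249 mitotic of 2582 thinned cells (9.64%). The others scored lower, at 0.416 for a cluster with Stmn1, itself a member, and Trem2 among its leading genes (693 of 4154 cells, 16.7%), and at 0.229 for one led by Cxcl2, Ccl3 and Tnf (340 of 5824, 5.84%). In eWAT the LAM-like share of mitotic cells was 13.3% and 8.04% in WT-Veh and 10.1% and 7.55% in ob/ob-Rosi. In ob/ob-Veh only 34 and 65 thinned LAM-like cells were left, of which 0 and 2 were mitotic. PVM-like shares were low throughout, at 0.485% to 3.64%. NPVM-like shares were 3.94% and 3.57% in WT-Veh, 5.75% and 2.93% in ob/ob-Veh and 11.1% and 5.45% in ob/ob-Rosi, so that the ob/ob-Veh and WT-Veh libraries overlapped in this state. By cluster, 141 of 1849 thinned cells (7.63%) were mitotic in one led by Lyz1 and Ear2, against 11 of 866 (1.27%) in one led by Chil3 and Cx3cr1. What part the mix of clusters has in the NPVM-like shares was not tested. The LAM-like share exceeded the PVM-like share in 5 of 6 eWAT libraries, by 5.54 ± 4.42 points, and in 4 of 5 iWAT libraries, by 4.33 ± 2.86 (SD, exact sign-flip adjusted p = 0.25 for both, p = 0.0625 and 0.125 unadjusted). Against NPVM-like cells the differences were 1.56 and 1.63 points (exact sign-flip adjusted p = 0.5 and 0.3333). None of the differences of shares between classes or depots passed an adjusted p of 0.05, and little room was left to pass. A class difference at its smallest p could pass only if most of the 10 compared stood there too. A depot difference at the smallest p of the exact permutation, 0.00926, could not pass alone, and stood at 0.0556 adjusted. The differences between states could not pass, as the exact sign-flip test allows no p below 0.03125 with 6 libraries or 0.0625 with 5. Adjusted together over both depots, no such value can fall below 0.0625, so nothing is read from this.

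The classes that made up the mitotic cells are given as a description. Over all eWAT libraries 1521 of 1928 mitotic cells (78.9%) were macrophage-like, and 1282 of the 1928 (66.5%) were LAM-like. Macrophage-like cells were 85.6% and 76.1% of mitotic cells in WT-Veh, 38.2% and 42.1% in ob/ob-Veh, and 86.7% and 79.4% in ob/ob-Rosi. In iWAT 352 of 642 mitotic cells (54.8%) were macrophage-like, and the ob/ob-Rosi libraries carried this share, with 74.5% and 69.3%. It was 43.5% and 36.4% in WT-Veh and 14.3% and 9.09% in ob/ob-Veh, where DC-like cells made up 69.4% and 77.3%. These shares also follow how many cells of each state a library held: LAM-like cells numbered 57 and 86 in eWAT of ob/ob-Veh mice against 1883 to 5657 in the other eWAT libraries, and 17 and 34 against 521 to 1057 in iWAT.

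**Figure D3:**
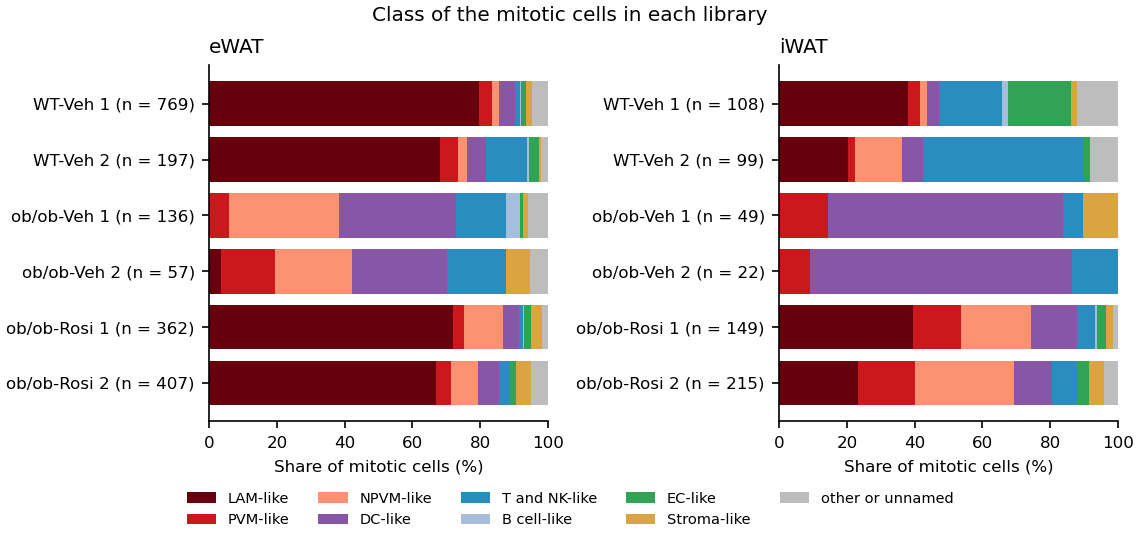
Class of the mitotic cells in each library (bars, % of the mitotic cells, with their number n beside each), for eWAT (left) and iWAT (right). The red shades are macrophage states, which fill 76.1% to 86.7% of the bar in eWAT of WT-Veh and ob/ob-Rosi mice and 38.2% and 42.1% in ob/ob-Veh.

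The S phase genes were not used to call a cell mitotic, and they were higher in mitotic cells. In eWAT macrophage-like cells 14 of the 15 S phase members were higher in mitotic than in other cells in 6 of 6 libraries. Cdc6, which loads the helicase, was higher in 5 of 6. The share of all genes that separated the cells in this way is not given, here or for the genes below. Mitotic macrophage-like cells of eWAT were also deeper, with a median of 7071 UMIs against 4104. Rrm2, the subunit of ribonucleotide reductase made for S phase, had a median of 90.5 counts per 1000000 UMIs (CPM) in mitotic and 4.69 in other macrophage-like cells, 19.3-fold. Tk1 had 189 against 18.8 CPM, 10.0-fold, while Pcna, which also serves DNA repair, had 129 against 63.4, 2.04-fold. Stmn1, a regulator of microtubules, was 7.66-fold higher, Tubb5, a tubulin, 4.04-fold and H2afz, a histone variant, 3.43-fold. Among genes outside the list, the mitotic regulators Cdc25c, Foxm1 and Cdkn3 were 31.4-fold, 21.5-fold and 19.2-fold higher in the median. Lower in mitotic cells in 6 of 6 libraries were Btg2 (0.435-fold) and Gadd45b (0.552-fold), both linked to growth arrest, and the Cdk inhibitor Cdkn1c (0.549-fold). Mki67 itself was seen in a median of 88.6% of mitotic macrophage-like cells of eWAT and 88.6% in iWAT, a value the definition helps to set.

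Summed over the macrophage-like cells of a library, most mitosis members followed the same order. In a class sum, fewer cells with a transcript and less of it per cell cannot be told apart. Mki67, the marker stained as Ki-67, stood at 117 and 61.9 CPM in eWAT of WT-Veh mice, 41.4 and 19.4 in ob/ob-Veh, and 95.2 and 60.4 in ob/ob-Rosi. Top2a, which untangles DNA, stood at 98.8 and 45.5, 39.5 and 21.3, and 74.9 and 53.7 CPM in the same order. Both ob/ob-Veh libraries were below the other 4 for each gene.
Birc5, a subunit of the complex that corrects chromosome attachment, stood at 99.4 and 50.8 CPM in WT-Veh, 18.0 and 5.42 in ob/ob-Veh, and 71.2 and 73.7 in ob/ob-Rosi. Ube2c stood at 90.9 and 45.9, 21.7 and 11.7, and 58.1 and 76.8 CPM. The gap was wide for the genes of mitotic entry: Ccnb1 (chr13:100778650-100786570, minus strand, GRCm38) stood at 22.4 and 16.4 CPM in WT-Veh, 3.05 and 1.99 in ob/ob-Veh, and 18.0 and 21.6 in ob/ob-Rosi. Its partner Cdk1 stood at 56.0 and 22.9, 8.91 and 4.62, and 32.2 and 32.9 CPM.

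The S phase members of eWAT macrophage-like cells were divided. Tk1 (chr11:117815526-117826092, minus strand), thymidine kinase, stood at 70.0 and 34.8 CPM in WT-Veh, 5.94 and 2.95 in ob/ob-Veh, and 31.9 and 52.3 in ob/ob-Rosi, a wide gap. Tyms, thymidylate synthase, stood at 28.0 and 14.7, 7.95 and 6.45, and 18.7 and 20.8 CPM, also without overlap. Pcna, by contrast, stood at 69.9 and 61.5 CPM in WT-Veh, 68.7 and 73.3 in ob/ob-Veh, and 83.8 and 54.7 in ob/ob-Rosi, and its labels overlapped. Mcm5 stood at 39.1 and 19.9, 19.8 and 12.7, and 26.7 and 31.8 CPM, and Rrm2 at 21.5 and 8.22, 9.79 and 5.18, and 11.1 and 15.7. For Rrm2 the WT-Veh and ob/ob-Veh libraries overlapped.
Of the broadly expressed members, Stmn1 stood at 386 and 244 CPM in WT-Veh, 82.7 and 51.4 in ob/ob-Veh and 254 and 390 in ob/ob-Rosi. Tubb5 stood at 598 and 490, 327 and 330, and 505 and 728 CPM, and H2afz at 1056 and 858, 452 and 542, and 1045 and 1057. None of the 3 overlapped between ob/ob-Veh and the other labels.

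In iWAT macrophage-like cells the mitosis genes shown were lower than in eWAT, with ob/ob-Veh again lowest. Mki67 stood at 48.4 and 16.5 CPM in WT-Veh, 7.52 and 7.93 in ob/ob-Veh, and 45.5 and 32.5 in ob/ob-Rosi. Top2a stood at 41.2 and 14.4, 9.80 and 9.29, and 34.3 and 27.5 CPM. Birc5 stood at 24.4 and 15.2, 3.32 and 2.95, and 27.1 and 25.05 CPM, and Ube2c at 27.9 and 22.6, 5.77 and 5.89, and 25.5 and 29.0. For all 4 genes both ob/ob-Veh libraries lay below the rest.
Ccnb1 stood at 14.6 and 3.99 CPM in WT-Veh, 0.70 and 0.68 in ob/ob-Veh, and 7.22 and 6.69 in ob/ob-Rosi. Cdk1 stood at 16.6 and 7.13, 3.4998 and 4.53, and 14.7 and 10.0 CPM. Tk1 stood at 15.8 and 10.4 CPM in WT-Veh, 1.05 in ob/ob-Veh replicate 1 and 0 in replicate 2, and 11.9 and 10.8 in ob/ob-Rosi. Pcna overlapped between labels here too, at 109 and 51.1, 44.6 and 75.9, and 80.8 and 40.3 CPM. Mcm5 stood at 22.9 and 10.5, 7.70 and 8.16, and 14.1 and 13.3 CPM, Rrm2 at 8.78 and 3.70, 2.97 and 1.13, and 3.98 and 6.36, and Tyms at 12.7 and 8.72, 4.55 and 4.98, and 8.20 and 8.89. These 3 genes did not overlap, but the gaps were narrow.
Stmn1 stood at 78.3 and 103 CPM in WT-Veh, 19.1 and 17.9 in ob/ob-Veh, and 107 and 124 in ob/ob-Rosi. Tubb5 stood at 382 and 411, 164 and 178, and 347 and 422 CPM, and H2afz at 556 and 803, 211 and 362, and 818 and 850. Counted over all members, both ob/ob-Veh libraries lay below the other 4 for 34 of 42 in eWAT macrophage-like cells, against 21.8% of all genes tested, and for 35 of 42 in iWAT, against 20%. In no member did both ob/ob-Veh libraries lie above the other 4.

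**Figure D4:**
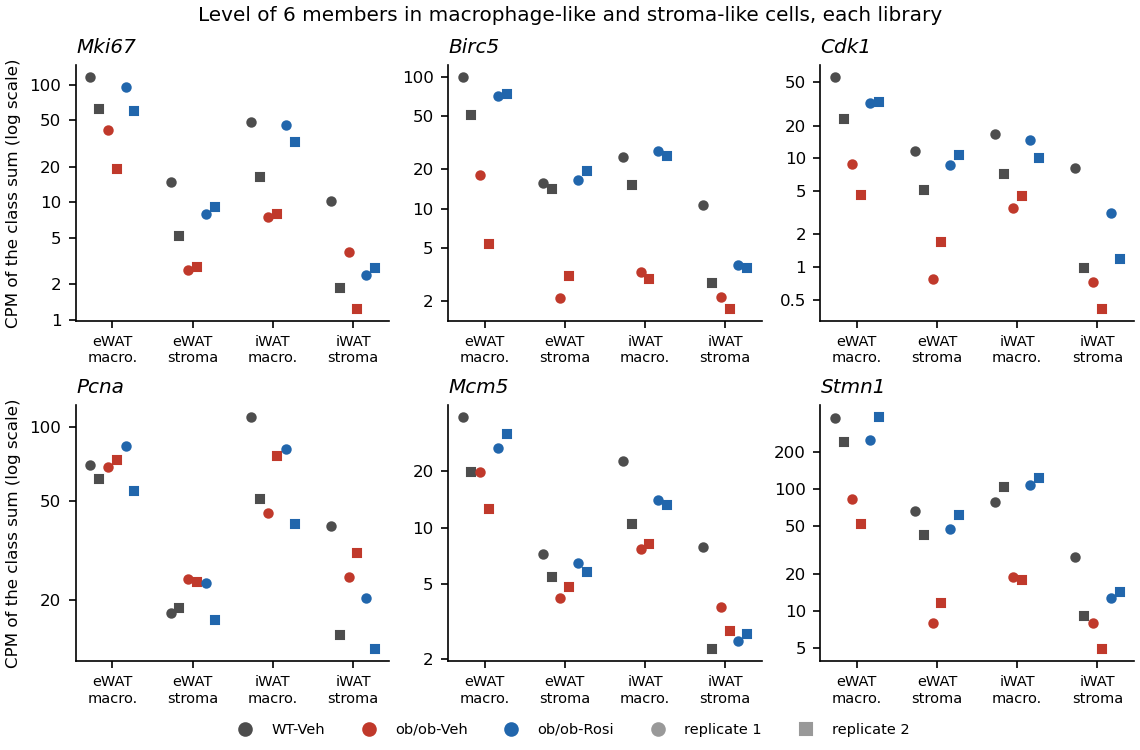
CPM on a log axis of Mki67, Birc5, Cdk1, Pcna, Mcm5 and Stmn1 in macrophage-like and stroma-like cells of eWAT and iWAT, each point being 1 library coloured by label and shaped by replicate. The ob/ob-Veh points lie lowest for Mki67, Birc5, Cdk1 and Stmn1 in macrophage-like cells of both depots, and within the others for Pcna.

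In macrophage-like cells of eWAT, 27 of 42 members were lower in ob/ob-Veh than in WT-Veh and none was higher, by edgeR's quasi-likelihood test at an adjusted p of 0.05 and 1.1-fold, where 14.5% of all genes were lower and 12.7% higher. The median over the members was a log2 change of −1.75. Of the mitosis members 20 of 24 fell, of the S phase members 4 of 15 and of the broadly expressed members 3 of 3. Tk1 fell by 3.75 on the log2 scale (SE 0.48, edgeR adjusted p = 0.00112). Ccnb1 fell by 3.13 (SE 0.34, edgeR adjusted p = 0.000482), and the spindle gene Hmmr by 2.92 (SE 0.47, edgeR adjusted p = 0.00304). Birc5, Cdk1 and Mki67 fell by 2.86, 2.73 and 1.74. Pcna had a log2 change of −0.08, and the helicase genes Mcm2 to Mcm5 and Mcm7, Rrm1, Rrm2, Uhrf1, Hells, Cdc6, Cenpa, Kif11, Kif23 and Aurkb did not pass. This fit had no replicate block, and more members passed with it, as given in the closing sections. Without WT-Veh replicate 1, 11 members passed. Markers of other classes in these cells moved with the label: the summed DC markers were at 779 and 1031 CPM in WT-Veh, 1345 and 1376 in ob/ob-Veh and 650 and 458 in ob/ob-Rosi, and the B cell markers at 173 and 260, 323 and 511, and 138 and 139. The stroma markers ran from 1253 to 2001, the T and NK markers from 65.9 to 221 and the EC markers from 30.3 to 63.4 CPM, and the part of all these in the result was not tested.

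With Rosi, 28 of 42 members were higher in ob/ob-Rosi than in ob/ob-Veh macrophage-like cells of eWAT and none was lower, where edgeR called 15.3% of all genes higher and 13.6% lower. Both comparisons use the same ob/ob-Veh libraries, so they are not independent. The mitosis members gave 20 of 24 (median log2 change 2.02), the S phase members 5 of 15 (1.06) and the broadly expressed members 3 of 3 (1.30). Tk1 rose by 3.46 (SE 0.48, edgeR adjusted p = 0.0014), Ccnb1 by 3.18 (SE 0.34, edgeR adjusted p = 0.000419), Birc5 by 2.83, and Ccnb2 and Hmmr by 2.60 each. Hmmr stood at 30.8 and 14.8 CPM in WT-Veh, 4.74 and 2.15 in ob/ob-Veh, and 21.4 and 15.1 in ob/ob-Rosi, and Ccnb2 at 42.2 and 25.1, 8.27 and 4.30, and 27.0 and 38.8. Mki67 rose by 1.55 (edgeR adjusted p = 0.0229). Without replicate 2 of ob/ob-Veh, or without that of ob/ob-Rosi, 18 members passed.

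In iWAT macrophage-like cells 24 of 42 members were lower in ob/ob-Veh than in WT-Veh and none higher, where edgeR called 8.66% of all genes lower and 6.77% higher. In ob/ob-Rosi 27 were higher than in ob/ob-Veh and none lower, where 13.1% of all genes were higher and 10.9% lower. Tk1 fell by 4.63 and rose by 4.48 on the log2 scale, Ccnb1 fell by 3.84 and rose by 3.54, and the spindle assembly factor Tpx2 fell by 3.07 and rose by 3.51. Birc5 fell by 2.81 (SE 0.32, edgeR adjusted p = 0.00445) and rose by 3.27 (SE 0.32, edgeR adjusted p = 0.00328). Cdc20 fell by 2.98, and Prc1, which bundles microtubules between the separating chromosomes, rose by 3.20. Tpx2 stood at 10.7 and 6.28 CPM in WT-Veh, 0.35 and 2.04 in ob/ob-Veh, and 11.5 and 10.3 in ob/ob-Rosi. Cdc20 stood at 5.33 and 3.24, 0.70 and 0.453, and 4.12 and 5.06 CPM, and Prc1 at 13.2 and 5.25, 2.27 and 0.906, and 13.9 and 12.3. The ob/ob-Veh values of Tk1, Ccnb1, Tpx2 and Cdc20 were near the floor, so the sizes of their changes are uncertain. Without either library of ob/ob-Veh 1 member passed as lower. The count higher was 1 without replicate 1 of ob/ob-Veh, 8 without its replicate 2 and 15 without replicate 2 of ob/ob-Rosi. The summed stroma markers of these cells were highest in ob/ob-Veh, at 6945 and 6545 CPM against 1296 and 1315 in WT-Veh and 2081 and 2480 in ob/ob-Rosi, as were the DC markers, at 2843 and 3508 against 1910 and 1620 and 1186 and 971, and their part was not tested.

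Fitted by state, fewer members passed. In LAM-like cells of eWAT 19 of 42 were lower in ob/ob-Veh (edgeR, 1.01% of all genes lower) and 12 higher in ob/ob-Rosi (0.498% higher), against the 57 and 86 LAM-like cells of ob/ob-Veh. In PVM-like cells of eWAT 5 were lower and 9 higher (1.62% of genes lower, 1.72% higher), with Ccnb1 at −2.44 and 3.52 (edgeR adjusted p = 0.0223 and 0.00516). In NPVM-like cells of eWAT Tk1 alone of 41 members fell, by 1.68, which is near the share of all genes (2.45% lower). There 8 members rose (2.93% higher), Tk1 by 2.07 and Birc5 by 1.79. In iWAT 4 members rose in PVM-like cells (5.7% of genes higher), Stmn1, Gins2, Birc5 and Ccnb2, by 2.22, 2.02, 1.97 and 1.60. None passed in iWAT in NPVM-like cells or, for ob/ob-Veh, PVM-like cells by edgeR, with 14 and 22, and 8 members at an unadjusted p under 0.05. Of all genes edgeR called 0.0313% lower and 0.0522% higher in NPVM-like cells and 1.9% lower in PVM-like cells there. The NPVM-like fit of iWAT rests on 59 and 24 cells of ob/ob-Veh. Its LAM-like fit holds 1 ob/ob-Veh library of 34 cells, as the other had 17, under the limit of 20. There the log2 change was below 0 in ob/ob-Veh for 42 of 42 members and above 0 with Rosi for 41. Nothing further is read from that fit.

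**Figure D5:**
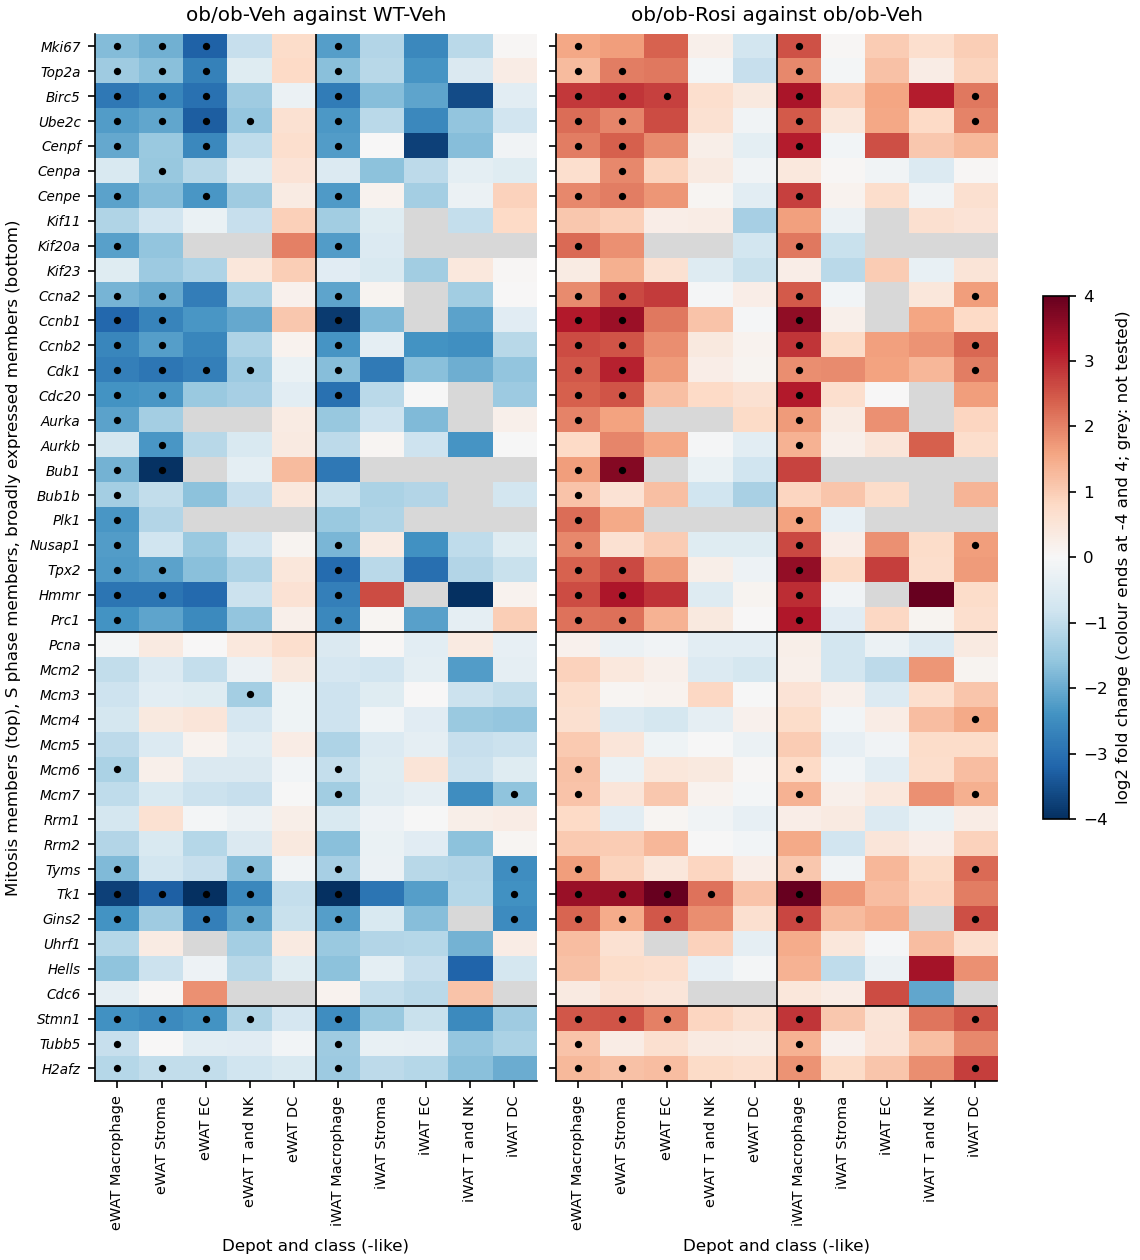
Log2 fold changes of the 42 members (rows) in 5 classes of each depot (columns), for ob/ob-Veh against WT-Veh (left) and ob/ob-Rosi against ob/ob-Veh (right), where blue is lower, red is higher and a dot marks an edgeR call. The macrophage-like columns hold 27 and 24 dots on the left and 28 and 27 on the right, against 0 and 0 in the iWAT stroma-like column.

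In stroma-like cells of eWAT the mitosis members were lowest in ob/ob-Veh too, while the S phase members were divided. Mki67 stood at 14.9 and 5.19 CPM in WT-Veh, 2.67 and 2.82 in ob/ob-Veh, and 7.92 and 9.16 in ob/ob-Rosi, and Top2a at 13.02 and 5.55, 2.78 and 3.41, and 12.0 and 12.5. Birc5 stood at 15.7 and 14.1, 2.09 and 3.05, and 16.4 and 19.3 CPM, and Ube2c at 15.7 and 9.77, 2.16 and 4.35, and 9.77 and 13.7. Ccnb1 stood at 4.496 and 2.41, 0.541 and 0.587, and 4.89 and 7.07 CPM, and Cdk1 at 11.8 and 5.06, 0.773 and 1.70, and 8.72 and 10.7. Both ob/ob-Veh libraries were lowest for each.
Of the S phase genes, Mcm5 stood at 7.29 and 5.43, 4.21 and 4.82, and 6.47 and 5.82 CPM, Rrm2 at 2.79 and 2.41, 1.31 and 2.29, and 3.17 and 3.73, and Tyms at 14.1 and 11.6, 7.07 and 9.16, and 13.6 and 15.5. Pcna stood at 17.7 and 18.6, 24.1 and 23.6, and 23.4 and 16.6 CPM, with ob/ob-Veh highest. Stmn1 stood at 65.7 and 41.8, 8.04 and 11.6, and 46.9 and 61.4 CPM, Tubb5 at 266 and 250, 261 and 281, and 254 and 394, and H2afz at 325 and 305, 148 and 187, and 362 and 364. Stmn1 and H2afz did not overlap, and Tubb5 did.
By edgeR 17 of 42 members were lower in ob/ob-Veh (4.42% of all genes lower) and 19 higher in ob/ob-Rosi (4.71% higher), and none was called the other way. The log2 change was above 0 in ob/ob-Veh for 7 members and below 0 in ob/ob-Rosi for 4, none of them a mitosis member. The mitosis members gave 14 and 15 of 24 and the S phase members 1 and 2 of 15. Bub1, at 12 and 5 UMIs in WT-Veh, 1 and 2 in ob/ob-Veh and 6 and 15 in ob/ob-Rosi, changed by −3.96 and 3.67, Tk1 by −3.27 and 3.48, Hmmr by −2.92 and 3.24, Cdk1 by −2.88 and 3.07, and Ccnb1 by −2.65 and 3.43. Tk1 stood at 11.0 and 4.58, 0.927 and 0.705, and 6.87 and 11.3 CPM, and Hmmr at 4.96 and 2.17, 0.618 and 0.294, and 5.15 and 3.96.

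Macrophage transcripts were present in these cells and moved with the result. All 13 macrophage markers were detected in the stroma-like cells of every eWAT library, summing to 394 to 2865 CPM against 17624 to 30546 in macrophage-like cells, and 47.9% to 92.4% of stroma-like cells held at least 2 of them. When those cells were left out, 12 of the 42 members could still be tested, of which 1 passed as lower and 1 as higher. The count lower was 3 without WT-Veh replicate 1, 5 without replicate 1 of ob/ob-Veh and 8 without replicate 2 of that label. The count higher was 3 without ob/ob-Rosi replicate 2 and 8 without replicate 1 of ob/ob-Veh. What part macrophage RNA has in the stroma-like values was not tested.

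In iWAT stroma-like cells no member passed in either comparison by edgeR, where 0.0661% of all genes were lower in ob/ob-Veh and 0% higher in ob/ob-Rosi. At an unadjusted p under 0.05 there were 5 lower and 3 higher members, and DESeq2 called 2 and 1. WT-Veh replicate 1 stood apart in most of the members: Mki67 was at 10.3 CPM there, at 1.85 in WT-Veh replicate 2, at 3.79 and 1.24 in ob/ob-Veh and at 2.42 and 2.76 in ob/ob-Rosi. Top2a stood at 14.9 and 1.25, 4.58 and 2.39, and 3.17 and 3.35 CPM, Birc5 at 10.6 and 2.71, 2.15 and 1.73, and 3.70 and 3.55, and Ube2c at 11.9 and 1.39, 3.67 and 2.14, and 3.17 and 4.79. Ccnb1 stood at 6.08 and 0.396, 1.07 and 0.577, and 0.906 and 0.998 CPM, and Cdk1 at 8.21 and 0.991, 0.735 and 0.412, and 3.17 and 1.20. The 2 WT-Veh libraries thus bracketed the others for Top2a, Ube2c and Ccnb1.
Pcna stood at 39.8 and 14.4, 24.7 and 30.8, and 20.3 and 12.6 CPM, Mcm5 at 7.91 and 2.25, 3.79 and 2.80, and 2.49 and 2.72, Rrm2 at 3.35 and 1.65, 2.20 and 1.81, and 0.831 and 1.44, and Tyms at 10.9 and 6.80, 7.06 and 8.00, and 6.12 and 7.19. Tubb5 stood at 251 and 239, 224 and 179, and 204 and 248 CPM, where ob/ob-Rosi overlapped both other labels. Rrm2 was lowest in ob/ob-Rosi. Stmn1, at 28.0 and 9.05, 7.97 and 4.86, and 12.7 and 14.4 CPM, and H2afz, at 323 and 273, 126 and 170, and 249 and 237, kept ob/ob-Veh lowest.

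EC-like cells of eWAT gave 11 of 37 tested members lower in ob/ob-Veh (edgeR, 4.47% of all genes lower) and 5 higher in ob/ob-Rosi (2.85% higher). Tk1 stood at 35.5 and 12.9 CPM in WT-Veh, 0.665 and 0.341 in ob/ob-Veh and 11.1 and 15.5 in ob/ob-Rosi, a log2 change of −5.59 and 4.87 (edgeR adjusted p = 0.00157 and 0.00421). It was close to undetected in ob/ob-Veh, among 252 and 544 cells, so the size of its change is uncertain. Mki67 stood at 77.03 and 15.9, 7.31 and 3.41, and 35.2 and 14.7 CPM and fell by 3.25, and Ube2c, Birc5 and Cdk1 fell by 3.30, 2.98 and 2.74. Ube2c stood at 57.8 and 13.3, 6.65 and 1.70, and 17.6 and 22.2 CPM, Birc5 at 50.7 and 14.6, 5.32 and 3.41, and 26.0 and 25.3, and Cdk1 at 32.4 and 9.88, 5.98 and 1.36, and 6.51 and 11.7. In each the ob/ob-Veh libraries were lowest. Birc5, Gins2, a partner of the helicase, Stmn1 and H2afz rose by 2.74, 2.48, 2.02 and 1.23 with Rosi. Gins2 stood at 19.3 and 8.59, 3.32 and 1.36, and 13.02 and 9.44 CPM, Stmn1 at 199 and 87.7, 33.9 and 25.5, and 91.2 and 125, and H2afz at 612 and 462, 280 and 310, and 630 and 642. All 13 macrophage markers were detected here too and their sum moved with the label, at 6883 and 5682 CPM in WT-Veh, 2484 and 1805 in ob/ob-Veh and 7138 and 6470 in ob/ob-Rosi. Without the 59.9% to 94.9% of EC-like cells that held at least 2 of them 2 members could still be tested and neither passed, so that setting says little on the members, and the part of macrophage RNA was not tested. The count lower was 3 without WT-Veh replicate 1 and 2 without replicate 2 of ob/ob-Veh. The count higher was 9 and 10 without replicate 1 or 2 of WT-Veh, 1 without replicate 2 of ob/ob-Veh and 0 without that of ob/ob-Rosi. With the replicate number as a block, 19 passed as lower and 18 as higher. In iWAT EC-like cells edgeR called none (0% of all genes lower and 0.00815% higher), with 3 and 2 members at an unadjusted p under 0.05 and 1 and 1 called by DESeq2.

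In T and NK-like cells of eWAT few members fell in ob/ob-Veh, 4 of them of S phase. By edgeR 7 of 38 members were lower (1.74% of all genes lower): Tk1 by 2.59, Gins2 by 2.08, Tyms by 1.69, Ube2c by 1.54, Cdk1 by 1.45, Mcm3 by 1.37 and Stmn1 by 1.22. Tk1 stood at 29.5 and 38.2 CPM in WT-Veh, 6.57 and 6.17 in ob/ob-Veh and 36.2 and 22.5 in ob/ob-Rosi. It was the only member of 38 to pass with Rosi, at 2.16, which is near the share of all genes (1.82% higher). Gins2 stood at 14.8 and 18.0, 6.10 and 2.06, and 12.1 and 15.9 CPM, and Tyms at 23.6 and 34.3, 9.85 and 11.0, and 27.2 and 13.7, again with ob/ob-Veh lowest. Ube2c stood at 48.7 and 102, 36.6 and 21.9, and 30.2 and 47.7 CPM, and Cdk1 at 33.9 and 37.7, 16.9 and 12.3, and 27.2 and 12.6, where ob/ob-Veh and ob/ob-Rosi overlapped. Mki67 stood at 82.6 and 162, 94.3 and 50.1, and 157 and 30.7 CPM and overlapped between all labels. All 13 macrophage markers were detected in these cells and moved with the label. They summed to 7972 and 4861 CPM in WT-Veh, 3179 and 3246 in ob/ob-Veh and 10558 and 7835 in ob/ob-Rosi. At least 2 of them were held by 47.7% to 95.9% of cells. The summed stroma markers ran from 2835 to 7241 CPM across libraries, and the part of both was not tested. DESeq2 called 2 of these members as lower, and 1 passed when library size alone was used for scaling. In iWAT edgeR called none of 35 (0.09% of all genes lower and 0% higher), with 9 lower and 7 higher at an unadjusted p under 0.05 and 2 and 2 called by DESeq2. Of 8 members tested in eWAT B cell-like cells and 10 in iWAT, none passed by edgeR or DESeq2 (0 and 1 at an unadjusted p under 0.05 in eWAT, 1 and 0 in iWAT), where edgeR called 0.502% of all genes lower and 0.598% higher in eWAT and 0% in iWAT.

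In DC-like cells of eWAT no member passed by edgeR or DESeq2 (4 and 5 of 40 at an unadjusted p under 0.05), where 0.675% of all genes were lower and 0.599% higher, and Mki67 stood at 98.0 and 62.5 CPM in WT-Veh, 186 and 121 in ob/ob-Veh and 125 and 54.9 in ob/ob-Rosi. The summed macrophage markers of DC-like cells ran from 1991 to 6654 CPM in eWAT, lowest in ob/ob-Veh, and from 1978 to 7592 CPM in iWAT, highest in ob/ob-Veh, and their part was not tested. In DC-like cells of iWAT 4 of 38 members were lower in ob/ob-Veh (edgeR, 5.76% of all genes lower), all of S phase: Gins2 by 2.52, Tyms by 2.49, Tk1 by 2.42 and Mcm7 by 1.61. Another 12 were higher in ob/ob-Rosi (10.7% of all genes higher), with H2afz at 2.75, Gins2 at 2.57, Stmn1 at 2.49, Ccnb2 at 2.29 and Tyms at 2.25, where the median of all genes was −0.11. H2afz stood at 678 and 2157 CPM in WT-Veh, 424 and 589 in ob/ob-Veh, and 2167 and 2685 in ob/ob-Rosi. Gins2 stood at 14.6 and 16.6, 4.13 and 3.12, and 12.2 and 20.2 CPM, Tyms at 21.9 and 22.1, 7.58 and 2.08, and 13.1 and 23.1, Tk1 at 32.8 and 21.2, 6.89 and 5.20, and 7.49 and 28.9, and Mcm7 at 36.5 and 42.4, 18.6 and 16.6, and 28.1 and 39.5. For these S phase genes the ob/ob-Veh libraries were lowest. Stmn1 stood at 58.3 and 195, 73.7 and 65.5, and 162 and 386 CPM, and Ccnb2 at 7.29 and 19.4, 8.27 and 12.5, and 21.5 and 49.1, where WT-Veh and ob/ob-Veh overlapped. Mki67 stood at 102 and 36.9, 89.6 and 76.9, and 113 and 122 CPM, where WT-Veh and ob/ob-Veh overlapped and ob/ob-Rosi was highest. Single libraries decided both counts. They were 13 lower and 23 higher without WT-Veh replicate 1, 0 and 23 without its replicate 2, 0 and 0 without either library of ob/ob-Veh, and 2 and 0 without replicate 2 of ob/ob-Rosi.

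Compared within libraries, 37 of 42 members had a higher CPM in macrophage-like than in stroma-like cells in all 6 eWAT libraries (29.5% of all genes did), the exceptions being Nusap1, Mcm4, Mcm7, Rrm1 and Tyms. The same held for 23 members in iWAT (29.5%). Macrophage-like cells exceeded EC-like cells in every library for 32 members in eWAT (22.5% of genes) and 20 in iWAT (21.8%), but T and NK-like cells for 2 and 0 (19.2% and 20.2%) and DC-like cells for 1 and 0 (28.1% and 18.6%). In a fit over both depots, no member's ob/ob-Veh or Rosi effect differed between eWAT and iWAT in macrophage-like cells, where edgeR called 1.55% and 0.609% of all genes and no member was at an unadjusted p under 0.05. In stroma-like cells none passed either (0.0212% and 0.0141% of genes), with 4 and 11 members at an unadjusted p under 0.05. DESeq2 was not run for these differences.

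Between ob/ob-Rosi and WT-Veh no member differed in any class of either depot by edgeR or DESeq2, where edgeR called 0.234% of all genes in EC-like cells of eWAT, 0.143% in B cell-like cells of iWAT and 0% in the other classes. At an unadjusted p under 0.05 there was none in macrophage-like or stroma-like cells of either depot, while 10 of 38 were lower in T and NK-like cells of eWAT and 9 of 38 higher in DC-like cells of iWAT. The libraries behind the first result spread widely: among macrophage-like cells of eWAT, Mki67 ran from 61.9 to 117 CPM in WT-Veh and from 60.4 to 95.2 in ob/ob-Rosi. In simulated counts of the same size, a 4-fold change was called for 77% of genes in eWAT macrophage-like cells and a 2-fold change for 18.2%. These were 81.6% and 10% in eWAT stroma-like, 69.4% and 7.22% in iWAT macrophage-like and 50% and 4.21% in iWAT stroma-like cells. Smaller differences would thus mostly be missed.

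Other genes of the pathway were taken from 4 further lists, whose counts stand against 14.5% of all genes lower and 12.7% higher in ob/ob-Veh and 15.3% higher and 13.6% lower with Rosi. In macrophage-like cells of eWAT, 31 of 48 other mitosis genes were lower in ob/ob-Veh and 1 higher (median log2 change −1.39), and 29 were higher with Rosi and none lower (1.36). Of 36 other replication genes, 20 were lower and 1 higher in ob/ob-Veh, and 19 were higher and 1 lower with Rosi. Cdca3, which triggers mitotic entry, changed by −2.57 and 2.59, the checkpoint adaptor Clspn by −2.16 and 1.81, and the polymerase subunit Pole by −1.93 and 1.91. Slbp, which binds histone mRNA, went the other way at 0.80 and −0.67.
Of 22 cyclins, Cdks and their inhibitors 5 were lower and 1 higher in ob/ob-Veh, and 7 higher and 2 lower with Rosi. The phosphatases Cdkn3 and Cdc25c changed by −2.94 and 2.92 and by −2.44 and 2.76, while the G1 cyclin Ccnd2 changed by 1.58 and −1.58. Of 25 E2F, DREAM complex and p53 regulators 3 were lower and 6 higher in ob/ob-Veh, and 3 higher and 5 lower with Rosi, so that the 3 lower and the 3 higher lie near the share of all genes. Mybl2, an activator of mitosis genes, changed by −2.02 and 2.06, and the antiproliferative gene Btg2 by 1.41 and −1.64.
In iWAT macrophage-like cells 8.66% of all genes were lower in ob/ob-Veh and 13.1% higher with Rosi. The same lists gave 19 of 47, 9 of 35, 6 of 22 and 2 of 25 lower in ob/ob-Veh. With Rosi 25, 15, 7 and 2 were higher, and Cdkn3 changed by −3.25 and 3.76. Called the other way were the mitosis gene Espl1, at 1.24 and −1.21, and, with Rosi, the regulator Lin52, at −1.30. Of all genes 6.77% were higher in ob/ob-Veh and 10.9% lower with Rosi. In stroma-like cells of eWAT 6 of 45 other mitosis genes and none of 34 other replication genes were lower in ob/ob-Veh (4.42% of all genes lower), and 14 and 3 were higher with Rosi (4.71% higher), while Myc, a driver of growth, was higher by 2.12 in ob/ob-Veh and lower by 2.64 with Rosi.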

How the data were processed

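Single-cell libraries of the stromal vascular fraction were made with a 10x 3′ kit from 12 samples, 2 per label (lean WT-Veh, and ob/ob given vehicle or Rosi) in each of 2 depots. The authors used bcl2fastq 2.19.1.403 and Cell Ranger 3.0.2 on mm10 and deposited raw UMI counts of 31053 genes, with no normalization. The deposited iWAT matrices hold no barcode above 22000 UMIs or at 25% mitochondrial counts, whereas the eWAT matrices do. The same limits were therefore set for both: 700 to 22000 UMIs, 200 to 6000 genes and under 25% mitochondrial counts. Total counts per library were 40933057 to 92475986 UMIs in eWAT and 20132553 to 66818914 in iWAT.

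Cells were clustered per depot with scanpy 1.11.5 and leidenalg 0.10.2 (2000 variable genes without the members and the other cell cycle lists, 25 principal components, 20 neighbours), and clusters were named from marker genes. A class called X-like rests on rebuilt names, which can differ from the study's. Doublets were kept, and cells with the highest doublet scores (335 to 2450 per library) were removed as an alternative. The members, lists and tests were chosen with earlier results of these data known.

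Cells were thinned to 1500 UMIs for shares, with a share of 0 given the limit of 3 cells of the total. Differences of shares were tested with exact two-sided permutation tests. Within each library, the UMI counts of a class (at least 20 cells) were added up and tested with edgeR 4.0.16 (TMM, filterByExpr, quasi-likelihood) over all genes, 3 labels in 1 fit, with Benjamini-Hochberg adjustment. A call needed an adjusted p of at most 0.05 and 1.1-fold. The labels call the libraries biological replicates and do not say whether same-numbered eWAT and iWAT libraries came from 1 mouse, so p-values measure the spread between these libraries. Alternatives were DESeq2 1.42.0, scaling by library size alone, no filter on low counts, a replicate block, each library left out, thinned cells, removal of doublets, single cells assigned by their own markers, and clusters with cell cycle genes. Added after seeing the data were separate fits of macrophage states, cells with at least 2 macrophage markers left out, and eWAT cells above the upper limits. The differences between depots and classes were fitted in edgeR with an interaction term.

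Named genes were Mki67, Top2a, Birc5, Ube2c, Ccnb1, Cdk1, Pcna, Mcm5, Rrm2, Tyms, Stmn1, Tubb5 and H2afz in macrophage-like and stroma-like cells, and up to 5 called members in each direction with the largest change per depot, class and comparison. From each further list up to 3 called genes were eligible. Others named in passing were chosen after their values were seen. Fits were tested on simulated data with known changes. Gene positions are from GENCODE on GRCm38.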

Additional observations from a re-analysis of the deposited data

Results flagged for a closer look

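In eWAT the ob/ob-Veh and Rosi effects on some members differed between macrophage-like and stroma-like cells of the same libraries, by an edgeR test of the difference itself (interaction of class and label, library as a block). It called 9 and 6 of 42 members, against 17% and 16.6% of all genes, so the members' share is near that of all genes. Each value is the log2 effect in macrophage-like cells minus that in stroma-like cells. For ob/ob-Veh against WT-Veh the difference was −1.48 for Mcm6, −1.13 for Mcm4, −1.49 for Uhrf1, −1.33 for Rrm1, −1.01 for Gins2 and −1.05 for Tyms, all genes of DNA copying, −1.44 for Nusap1, −1.0 for Tubb5 and 1.52 for Aurkb. For ob/ob-Rosi against ob/ob-Veh it was 1.57 for Mcm6, 1.28 for Mcm4, 1.34 for Rrm1, 1.43 for Nusap1, 0.93 for Tubb5 and −1.19 for Cenpa. The same test called no member in iWAT (1.48% and 0.0479% of all genes), where 13 and 29 members had an unadjusted p under 0.05, and DESeq2 was not run for it.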

How the results depend on the processing

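Counts of members called are given as lower in ob/ob-Veh than in WT-Veh and higher in ob/ob-Rosi than in ob/ob-Veh. Under the alternatives run, no member was called in the opposite direction in either comparison. Where a value moved, the cause was not tested. With cells thinned to 1500 UMIs the counts were 8 and 8 (for 17 and 19) in eWAT stroma-like, 1 and 1 (for 11 and 5) in EC-like and 1 and 0 (for 7 and 1) in T and NK-like cells, and in iWAT 10 and 15 (for 24 and 27) in macrophage-like and 0 and 2 (for 4 and 12) in DC-like cells. With cells assigned singly they were 6 and 10 in eWAT stroma-like and 1 and 2 in EC-like cells, 0 higher in T and NK-like cells and 11 lower in iWAT macrophage-like cells. Without cells holding at least 2 macrophage markers they were 1 and 1 of the 12 members still tested in eWAT stroma-like and 0 and 0 of 2 in EC-like cells. Without the filter on low counts they were 21 and 16 in EC-like and 14 and 2 in T and NK-like cells of eWAT, 6 and 3 in T and NK-like cells of iWAT, and 4 lower each in stroma-like and EC-like cells of iWAT. With doublets removed they were 3 and 3 in EC-like and 1 and 0 in T and NK-like cells of eWAT, 13 higher in iWAT macrophage-like cells, and 1 and 5 in iWAT DC-like cells. With clusters that kept the cell cycle genes they were 12 and 12 in macrophage-like and 2 and 3 in DC-like cells of iWAT, 4 lower in eWAT EC-like and 2 higher in eWAT T and NK-like cells. With library size alone there was 1 lower in eWAT T and NK-like cells, and 0 and 6 in iWAT DC-like cells. DESeq2 called 2 lower in eWAT T and NK-like cells, and 2 and 1 in stroma-like, 1 and 1 in EC-like and 2 and 2 in T and NK-like cells of iWAT. In macrophage states alone, PVM-like cells gave 5 and 9 in eWAT and 0 and 4 in iWAT. NPVM-like cells gave 1 and 8 in eWAT and 0 and 0 in iWAT, and LAM-like cells 12 higher in eWAT. The iWAT LAM-like fit, with 1 ob/ob-Veh library, is not counted.

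Replicate numbers 1 and 2 recur in each label, but the labels do not say that a number marks a shared day or litter. Deviations of same-numbered libraries correlated in eWAT at 0.162 to 0.207 in macrophage-like, 0.204 to 0.287 in stroma-like and 0.230 to 0.318 in EC-like cells. In T and NK-like, DC-like and B cell-like cells of eWAT they correlated at 0.144 to 0.162, −0.0615 to 0.186 and −0.0884 to 0.0996. In iWAT the range was 0.135 to 0.301 in EC-like cells, where no member passed with or without the block. It was −0.0587 to 0.595 in iWAT macrophage-like, −0.0335 to 0.545 in stroma-like, −0.0374 to 0.580 in T and NK-like and −0.0684 to 0.536 in DC-like cells. The highest value of each of these classes was that of WT-Veh against ob/ob-Rosi. Blocked on this number, 36 and 37 members passed in eWAT macrophage-like cells, 27 and 30 in iWAT, 20 and 23 in eWAT stroma-like, 19 and 18 in eWAT EC-like cells and 1 higher in iWAT T and NK-like cells.

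With 1 library left out, the counts lower and higher ran in eWAT from 11 to 35 and 18 to 31 in macrophage-like, 3 to 18 and 3 to 20 in stroma-like, 2 to 16 and 0 to 10 in EC-like and 1 to 11 and 0 to 5 in T and NK-like cells, and 0 to 1 higher in DC-like cells. In iWAT they ran from 1 to 30 and 1 to 34 in macrophage-like, 0 to 9 and 0 to 2 in stroma-like, 0 to 11 and 0 to 1 in EC-like, 0 to 14 and 0 to 5 in T and NK-like and 0 to 13 and 0 to 23 in DC-like cells. The lowest counts came without WT-Veh replicate 1 (11 lower) and without replicate 2 of ob/ob-Veh or of ob/ob-Rosi (18 higher each) in eWAT macrophage-like cells, and in EC-like cells without WT-Veh replicate 1 (3) or ob/ob-Veh replicate 2 (2 and 1) and without ob/ob-Rosi replicate 2 (0). In eWAT T and NK-like cells 1 passed as lower without WT-Veh replicate 2 or ob/ob-Veh replicate 2 and 11 without ob/ob-Rosi replicate 1. The highest counts in iWAT came without WT-Veh replicate 2 in stroma-like and EC-like and without WT-Veh replicate 1 in T and NK-like cells. A lone library was then assumed to vary like the other labels. Of the differences of mitotic shares (percentage points), macrophage-like minus T and NK-like in eWAT ran from −1.08 to 0.292, macrophage-like minus DC-like in eWAT from −3.11 to 0.0124, and the DC-like difference of eWAT minus iWAT from −1.58 to 1.16 (0.205 and 0.321 without WT-Veh or ob/ob-Rosi replicate 2 of eWAT, 0.103 and 0.0657 without replicate 1 of ob/ob-Veh or 2 of ob/ob-Rosi of iWAT). By label, ob/ob-Veh minus WT-Veh ran from −0.641 to 0.0321 in eWAT stroma-like, −3.97 to 2.77 in eWAT B cell-like and −0.226 to 0.0935 in iWAT stroma-like cells, and ob/ob-Rosi minus ob/ob-Veh from −1.45 to 4.92 in eWAT T and NK-like, −7.11 to 1.103 in eWAT DC-like and −0.0474 to 0.140 in iWAT stroma-like cells.

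The macrophage-like share stayed above the stroma-like and EC-like shares in both depots, and the eWAT share above the iWAT share in macrophage-like cells, under every alternative run. Clusters that kept the cell cycle genes are among these alternatives and are not read here, for the reason given below. Other differences of shares turned, all in percentage points. Macrophage-like minus T and NK-like in eWAT became 0.840 at 700 UMIs and 1.03 with clusters that kept the cell cycle genes, where macrophage-like minus DC-like became 0.0645 in eWAT and 0.622 in iWAT. In those clusters the LAM-like share exceeded the PVM-like share by 20.9 in eWAT and 26.6 in iWAT and the NPVM-like share by 19.8 in eWAT. These clusters include 1 per depot led by mitosis genes and named LAM-like whole. The definition therefore sets these differences and those of macrophage-like minus any other class, and nothing is read from them. For eWAT minus iWAT, T and NK-like cells gave 0.862 at 700 UMIs, 0.341 at 3000, 1.25 with at least 5 members, 1.23 with doublets removed and 4.93 with cells assigned singly, where B cell-like cells gave −1.63. DC-like cells gave 0.00324 at 700 UMIs, 2.86 with doublets removed, 3.98 with clusters that kept the cell cycle genes and 0.118 with cells assigned singly. For ob/ob-Veh minus WT-Veh, eWAT B cell-like cells gave 0.393 at 700 UMIs, 1.87 at 3000 and 2.24 assigned singly, eWAT DC-like cells −7.82 at 3000 UMIs, iWAT stroma-like cells 0.0143 at 700 UMIs and 0.0374 with at least 5 members, iWAT T and NK-like cells −0.604 at 700 UMIs, and iWAT DC-like cells −0.128 with clusters that kept the cell cycle genes. For ob/ob-Rosi minus ob/ob-Veh, eWAT T and NK-like cells gave −0.210 with those clusters and −1.65 assigned singly, iWAT stroma-like cells −0.0136 at 700 UMIs, −0.0203 with doublets removed and −0.0168 with those clusters, iWAT T and NK-like cells 0.551 at 700 UMIs, and iWAT DC-like cells −0.273 at 3000 UMIs and −0.385 with those clusters. Of the remaining alternatives, 69 and 69 counts stayed within 1.5 times their value. Shares that rest on under 100 cells, as of eWAT B cell-like cells and iWAT T and NK-like cells of ob/ob-Veh, are limited by the number of cells. Of the latter the limit of 1500 UMIs kept 20 of 147 and 28 of 231.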

Other observations

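Barcodes of eWAT above the upper limits of 22000 UMIs or 6000 genes were left out of every comparison. Assigned singly by their markers, 21 and 644 of them were macrophage-like in WT-Veh, 40 and 43 in ob/ob-Veh, and 187 and 857 in ob/ob-Rosi. Of these cells 7 and 155, 7 and 2, and 51 and 193 held at least 3 mitosis members after thinning to 1500 UMIs. Such barcodes can be large cells or doublets, which was not tested. With them added, the mitotic share of eWAT macrophage-like cells went from 9.82% and 5.68% to 9.89% and 9.28% in WT-Veh. It was 7.26 percentage points higher in ob/ob-Rosi than in ob/ob-Veh, against 5.78 without them.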
